A study of Mus musculus with 47 samples.

Results

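Hippocampal libraries rich in choroid plexus RNA were compared with those poor in it. The members of each class were chosen by the measured level of Ttr, which encodes transthyretin, a thyroxine carrier that choroid plexus epithelium secretes into cerebrospinal fluid. For each library the Ttr count was divided by the total count and multiplied by 1000000 (CPM). A library with a log2 CPM of 9 or more was called high and the others low, which placed 24 of the 47 libraries in the high class and 23 in the low class. Because Ttr chose the classes, its levels in the high and low classes are given as a description with no test. For every other gene, a test of high against low libraries shows only that its transcript went with Ttr in the same libraries, and not that it responded to a condition.

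The libraries came from snap-frozen hippocampi of male C57BL/6J mice that received daily intraperitoneal injections of vehicle (Veh) or of mouse platelet factor 4 (PF4), a chemokine released by platelets. Ages in the labels ran from 3.75 to 5.26 months in the Young Veh (n = 13) and Young PF4 (n = 12) groups and from 17.4 to 20.23 months in the Old Veh (n = 12) and Old PF4 (n = 10) groups. The labels give no transgene or deletion, and each library was made from the whole dissected hippocampus without sorting of cells. Full-length cDNA was made with Smart-Seq2 and turned into libraries that carry no strand information, so reads of a gene and of an overlapping gene on the other strand cannot be told apart. Total counts ranged from 2242879 to 21112908, with a median of 11411590 in the low class and 9173716 in the high class, and 5 of the 8 libraries with the lowest totals were high.

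The choroid plexus is a folded epithelium that hangs in the brain ventricles over a core of stroma and leaky capillaries. Its epithelial cells secrete cerebrospinal fluid by moving ions and water from blood to ventricle, carry nutrients, vitamins and hormones, and release proteins such as transthyretin. The tissue lies along the fimbria, close to the hippocampus, and can be lifted out with it during dissection. In bulk tissue, a lower level of an epithelial transcript can come from fewer epithelial cells or from less RNA per cell, and these cannot be told apart.

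Ttr ranged from 2.98 to 3805 CPM, with 34 reads in the library with the lowest Ttr count. The median was 2108 CPM in the high class and 38.3 CPM in the low class. Just below the threshold stood Young Veh replicate 1 (374.6 CPM), Young Veh replicate 2 (334.8 CPM) and Young Veh replicate 10 (213.2 CPM). Just above it stood Old Veh replicate 8 (885.8 CPM), Old PF4 replicate 10 (1028 CPM) and Young PF4 replicate 1 (1109 CPM). The empty interval around the threshold was thus 2.36-fold wide. When libraries were instead classed by the other 4 markers given for the tissue (Folr1, Kcne2, Clic6 and Prlr), all 47 received the same class.

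Both classes occurred in each of the 4 groups. In Old Veh, the 4 high libraries held 885.8, 1558, 2021 and 3805 CPM of Ttr, and the 8 low libraries ran from 3.58 to 129 CPM (median 17.5). In Old PF4, the 4 high libraries held 1028, 1586, 1912 and 2972 CPM, and the 6 low libraries ran from 10.1 to 46.1 CPM (median 20.2). The Old animals of both treatments therefore showed the same gap, with no library between 129 and 885.8 CPM.

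In Young Veh, the 5 low libraries held 2.98, 92.5, 213.2, 334.8 and 374.6 CPM, and the 8 high libraries ran from 1538 to 3657 CPM (median 2112). In Young PF4, the 4 low libraries held 66.7, 73.8, 78.1 and 205.2 CPM, and the 8 high libraries ran from 1109 to 3071 CPM (median 2364). The low class was thus less uniform in Young mice, where its median was 92.5 CPM against 20.2 CPM in Old mice.

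**Figure D1:**
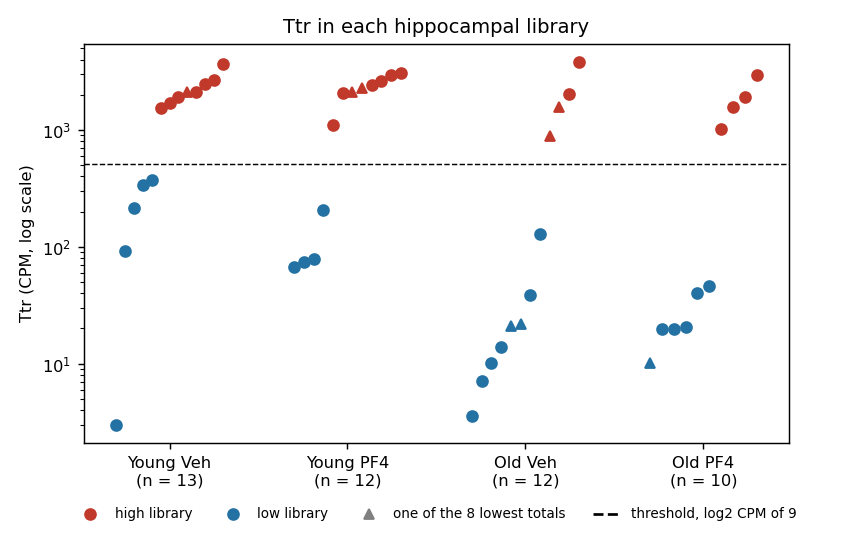
Ttr CPM (log axis) of each library by group, with high and low libraries marked and the threshold (log2 CPM of 9) drawn as a line. Each group holds libraries on both sides, and the 3 libraries nearest below the line are all Young Veh.

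High libraries made up 8 of 13 in Young Veh, 8 of 12 in Young PF4, 4 of 12 in Old Veh and 4 of 10 in Old PF4. Over both treatments, 16 of 25 Young and 8 of 22 Old libraries were high, an odds ratio of 3.03 (95% interval 0.815 to 12.2) that did not pass the threshold (two-sided Fisher's exact test, p = 0.0820). This comparison depends on where the threshold is placed, since the odds ratio was 4.34 (p = 0.0200, Fisher's exact test) with a log2 CPM of 8, which makes 26 libraries high, and 3.69 (p = 0.0415) with a log2 CPM of 10, which makes 23 high. It was 2.58 (p = 0.2003, Fisher's exact test) without the 8 libraries of lowest total. PF4 and Veh did not differ past the threshold within either age, with an odds ratio of 1.24 (0.183 to 8.87) in Young and 1.32 (0.167 to 10.6) in Old (p = 1 in both, Fisher's exact test). In a fit of the 4 groups without the classes, Ttr was −1.08 on the log2 scale in Old Veh against Young Veh (SE 0.90, adjusted p = 0.608), a difference close in size to its own error.

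The regions upstream of 3 of the leading transcripts are shown because their genes carry the comparison: Kcne2 and Prlr are markers of the tissue, and Kl encodes klotho, a hormone linked to lifespan in mice that this epithelium makes. The sequences are the 250 bases before the annotated start on the plus strand from RefSeq (GRCm38.p6), at chr16:92292139-92292388 for Kcne2, chr15:10176988-10177237 for Prlr and chr5:150952357-150952606 for Kl, none of which overlaps an annotated exon. RefSeq lists 2 starts for Kcne2, 3 for Prlr and 1 for Kl, and the first listed was used for each gene. Capitals mark TAATC or its reverse complement GATTA, the core recognised by OTX homeodomain proteins, of which Otx2 is the member expressed by choroid plexus epithelium.
Kcne2: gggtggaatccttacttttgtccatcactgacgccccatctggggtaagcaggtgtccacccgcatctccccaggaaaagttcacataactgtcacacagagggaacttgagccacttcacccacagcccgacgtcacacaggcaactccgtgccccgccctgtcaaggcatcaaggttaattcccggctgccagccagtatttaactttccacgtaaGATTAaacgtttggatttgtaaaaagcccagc
Prlr: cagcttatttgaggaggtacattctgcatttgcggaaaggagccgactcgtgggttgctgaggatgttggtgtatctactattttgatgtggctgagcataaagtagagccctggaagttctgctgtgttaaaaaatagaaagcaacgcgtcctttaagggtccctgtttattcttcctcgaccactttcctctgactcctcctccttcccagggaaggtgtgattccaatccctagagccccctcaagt
Kl: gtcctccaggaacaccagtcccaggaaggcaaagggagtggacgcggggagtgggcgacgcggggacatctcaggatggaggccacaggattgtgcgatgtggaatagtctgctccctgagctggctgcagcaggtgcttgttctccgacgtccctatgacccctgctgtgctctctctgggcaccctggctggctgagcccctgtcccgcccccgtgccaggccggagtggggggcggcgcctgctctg
The core was found in the Kcne2 window, at position -32 from the start, and in neither of the other windows. It occurred in 11 of the 43 tested epithelial genes with a promoter in the table (25.6%), in 13.9% of all 12081 tested genes with a promoter and in 20.2% of all 27025 promoters. The longer form TAATCC, read on both strands, occurred in 4 of these 43 genes (9.30%), in 5.16% of the tested genes and in 6.38% of all promoters. A match describes only the letters of the window.

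The 4 markers other than Ttr were each higher in high libraries. Folr1 (chromosome 7, 101858331 to 101870788, minus strand), the folate receptor that carries folate into cerebrospinal fluid, had a median of 30.2 CPM (10.4 to 58.7) in the high class and 1.24 CPM (0.438 to 7.65) in the low class. The classes did not overlap, and the difference was 3.78 on the log2 scale (SE 0.203, adjusted p = 3.76e-21). Kcne2 (chromosome 16, 92292389 to 92298129), a potassium channel subunit of the apical membrane, had a median of 24 CPM (10.1 to 37.8) against 0.604 CPM (0 to 4.75). It was higher by 4.29 (SE 0.238, adjusted p = 1.04e-20), the steepest of the 4, and 2 low libraries held no read of it. Prlr (chromosome 15, 10177238 to 10349180), the prolactin receptor, had a median of 69.0 CPM (21.9 to 105) against 7.28 CPM (4.38 to 19.5), and was higher by 2.84 (SE 0.140). Clic6 (chromosome 16, 92485736 to 92541243), an intracellular chloride channel protein, had a median of 81.5 CPM (26.8 to 121) against 3.64 CPM (0.821 to 28.2), and was higher by 3.55 (SE 0.219). Its classes met, since Young Veh replicate 1, a low library, held 28.2 CPM and Old Veh replicate 8, a high library, held 26.8 CPM. Per kilobase of annotated exon, the medians in the high class were 20.8 CPM for Clic6, 13.6 for Kcne2, 13.1 for Folr1 and 4.50 for Prlr, and the ranges of neighbours in this order overlapped.

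**Figure D2:**
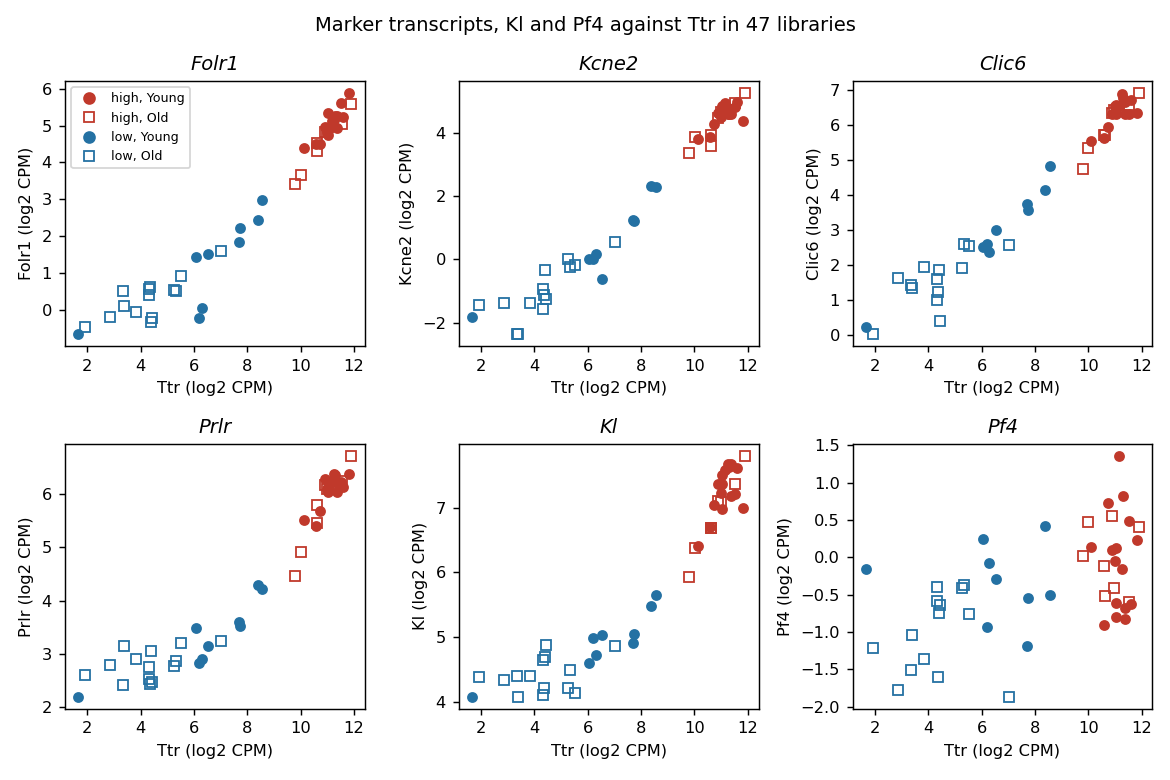
Log2 CPM of marker genes against log2 CPM of Ttr for the 47 libraries, which differ in depth, colored by class. The choroid plexus genes climb with Ttr across both classes.

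Over all genes, 1311 of 17777 were called at an adjusted p below 0.05 (7.37%), of which 1122 were higher (6.31%) and 189 lower (1.06%) in high libraries. The higher and lower genes differed in size. Among genes called higher, 226 exceeded a log2 difference of 1, 94 exceeded 2, 47 exceeded 3 and 19 exceeded 4, with a median of 0.47. Among genes called lower, the median was −0.11, the lowest was −0.73 and none exceeded 1. The CPM of the classes did not overlap at all for 61 higher genes (0.343%) and for no lower gene.

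The 54 genes listed as choroid plexus epithelial besides Ttr had 53 tested members, since Epcam, an epithelial adhesion molecule, had too few reads. Of these, 52 were called higher, with a median of 2.66 against −0.01 over all genes tested, and 33 of the 61 non-overlapping genes were among them. The list holds markers of the tissue that defines the classes, and some members pass the read filter only through the high libraries, so the count is descriptive. Among members with at least 10 reads in every library it was 23 of 23. The exception was Kcnq1, a potassium channel that pairs with Kcne2, at 1.12 CPM against 0.727 CPM (log2 0.44, SE 0.19, adjusted p = 0.180). Kcnq1 overlaps its antisense transcript Kcnq1ot1, which had 102750 reads over all libraries against 441 for Kcnq1.

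Among the secreted proteins and enzymes, 10 of 10 members were higher. Enpp2, which encodes autotaxin, the enzyme that makes lysophosphatidic acid, had a median of 401 CPM per kilobase of exon in high and 38.5 in low libraries, far above Kl with 15.6 and 2.59. Its difference was 2.98 (SE 0.137), and low libraries still held 172 to 553 CPM. Kl (chromosome 5, 150952607 to 150993817) had a median of 146 CPM (61.0 to 222) in high and 24.1 CPM (16.8 to 49.996) in low libraries, a difference of 2.41 (SE 0.117, adjusted p = 1.43e-22), and its classes did not overlap. In the 4 high Old Veh libraries, Kl stood at 61.0, 103, 135 and 222 CPM, in the same order as Ttr. Wfdc2, a small secreted protease inhibitor homolog, showed the steepest difference of the epithelial genes (4.70, SE 0.286), at a median of 3.89 CPM against 0. With the low class at the floor, this size and rank are descriptive. Igf2, a growth factor released into cerebrospinal fluid, was higher by 1.94 (SE 0.162), although it overlaps another annotated gene, Gm49394, that drew 10683 reads against 11532 for Igf2. Ace, the angiotensin-converting enzyme, was higher by 2.59 (SE 0.132).

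Of the ion and water transport genes, 10 of 11 were higher. Slc4a5, a sodium bicarbonate cotransporter of the apical membrane, rose from a median of 0.373 CPM in low to 24.4 CPM in high libraries (4.61, SE 0.252). Aqp1, the water channel of this epithelium, stood at 20.3 CPM against 0.404 CPM (4.26, SE 0.233), and Kcnj13, an inward rectifier potassium channel, at 81.8 CPM against 2.54 CPM (4.05, SE 0.220). Other members differed by less. Slc12a2, the sodium, potassium and chloride cotransporter, stood at 93.1 CPM against 67.0 CPM (0.56, SE 0.0498), and Slc4a2, an anion exchanger, at 71.2 CPM against 24.2 CPM (1.39, SE 0.0817).

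The receptors (5 of 5), carriers (12 of 12) and transcription factors (3 of 3) were called higher as well. Htr2c, the serotonin receptor first known from choroid plexus and also made by neurons, had a median of 78.8 CPM (57.4 to 96.1) against 42.2 CPM (28.8 to 51.2). The ranges did not overlap although the difference was only 0.86 (SE 0.0524). Lepr, the leptin receptor, was higher by 1.87 (SE 0.197). Slc16a8, a lactate carrier, was higher by 4.22 (SE 0.263), Slc31a1, the copper importer, by 1.30 (SE 0.0744), and Slc22a8, an organic anion carrier, by 0.55 (SE 0.0967). Otx2, the homeodomain factor that specifies this epithelium, was at 11.4 CPM (5.47 to 18.2) against 0.575 CPM (0 to 3.76), higher by 3.22 (SE 0.216), and it overlaps the antisense transcript Otx2os1 (405 reads). Msx1, another homeodomain factor, was higher by 1.82 (SE 0.104).

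The 6 tested junction and keratin genes were higher, among them Cldn2, a claudin that forms paracellular cation channels (3.75, SE 0.219), and Krt18, a keratin of simple epithelia (3.48, SE 0.197). The remaining 6 epithelial genes were higher too, among them Col8a1, a short-chain collagen (chromosome 16, 57624258 to 57754737), which had the smallest adjusted p of all genes (3.61, SE 0.152, adjusted p = 1.01e-24). Cab39l, an adaptor of the STK11 kinase, stood at 101 CPM against 50.7 CPM (1.00, SE 0.0571).

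The 20 genes with the smallest adjusted p included 4 that the lists do not hold. These were Steap2, a metalloreductase (1.60, SE 0.077), Sulf1, an extracellular heparan sulfatase (2.56, SE 0.130), Col9a3, a collagen IX chain (2.19, SE 0.115), and Rbm47, an RNA-binding protein (3.20, SE 0.171). All stood above their low-class range in all 24 high libraries.

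**Figure D3:**
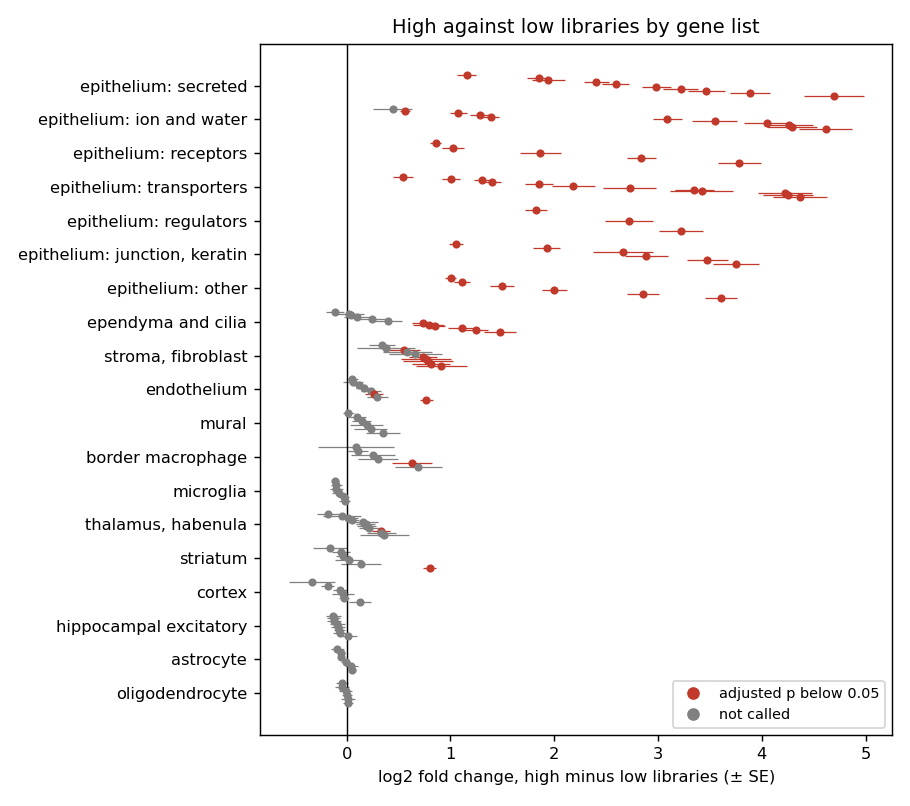
Log2 difference of high against low libraries for each tested member of the cell type lists, with genes called at an adjusted p below 0.05 marked. The epithelial lists lie mostly above 1, while the neuronal and glial lists lie around 0.

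Lists of cells that accompany the epithelium were called in part, beside 6.31% of all genes tested that were called higher. Among genes of ependyma and motile cilia, 6 of 12 were higher, including Foxj1, the factor that directs motile cilia (0.74, SE 0.108), and Rsph1, a radial spoke protein (0.85, SE 0.0941). Rarres2 (0.04, SE 0.0545) and Spag6 (−0.11, SE 0.0838) were not called. The motile cilia genes are also used by choroid plexus epithelium, which is itself ciliated. Among stromal and fibroblast genes, 6 of 10 were higher over both ages together, including Ptgds, the prostaglandin D synthase of meninges and choroid plexus, at a median of 730 CPM against 289 CPM (0.91, SE 0.242, adjusted p = 0.00875), and Col1a2 (0.81, SE 0.186). Dcn (0.34, SE 0.125) and Slc6a13 (0.58, SE 0.234) were not called. DESeq2 called the same number of stromal genes and also Ak7 of the cilia list. Summed over the list, stromal transcripts ran from 375 to 2217 CPM in high and from 207 to 1584 CPM in low libraries, so the classes overlapped broadly.

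Of the endothelial genes, 2 of 8 were higher: Slco1c1, a thyroxine carrier of brain capillaries and choroid plexus (0.77, SE 0.060), and Plvap, which forms the diaphragms of fenestrated capillaries (0.26, SE 0.0849). Over all genes tested 6.31% were called higher, so 1 or 2 calls in lists this short are descriptive. The pan-endothelial genes Flt1 (0.05, SE 0.0561) and Cldn5 (0.06, SE 0.0939) were not called. Mural genes (0 of 6), microglial genes (0 of 6) and the 2 tested red cell genes gave no call by edgeR or DESeq2, with 1 gene of each list at an unadjusted p below 0.05. Of the border macrophage genes, 1 of 6 was higher, Mrc1, the mannose receptor (0.63, SE 0.196), and DESeq2 called Pf4 as well.

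Of the tested markers of hippocampal neurons, glia and neighbouring brain regions, 2 of 43 were called (4.65%), a share near the 7.37% of all genes. Hippocampal excitatory (0 of 8), cortical (0 of 6), astrocyte (0 of 6) and oligodendrocyte genes (0 of 6) had no call by edgeR in either direction, with at most 1 gene of each list at an unadjusted p below 0.05, and DESeq2 called Lamp5 of the cortical list lower. The vesicular glutamate transporter Slc17a7 was −0.13 (SE 0.0711), and Prox1, the factor that marks dentate granule cells, was −0.07 (SE 0.0518). Among striatal genes, 1 of 6 was higher, Ppp1r1b, which encodes DARPP-32 and is known from choroid plexus as well as striatum, at 83.3 CPM against 45.9 CPM (0.80, SE 0.0605), while Drd1 (−0.05, SE 0.0858) was not. Of the thalamus and habenula genes, 1 of 11 was higher, Lef1 (0.33, SE 0.0853). A high library, Young PF4 replicate 8, held 693 CPM of the summed thalamus and habenula list against at most 368 CPM in any other library. Without it Lef1 was higher by 0.29.

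Genes called lower changed little. The 10 with the smallest adjusted p ranged from −0.17 to −0.09, and the CPM of the classes overlapped in each. Slc26a10, an anion exchanger family member, stood at 49.2 CPM against 54.5 CPM (−0.17, SE 0.029, adjusted p = 8.54e-06), and its gene overlaps B4galnt1, a ganglioside synthase on the opposite strand (−0.14, SE 0.027), so these are not separate observations. Lrrtm1, a postsynaptic adhesion protein, stood at 157 CPM against 167 CPM (−0.14, SE 0.024). The others were Gm49510, Pdxp, Npdc1, Ehd3, Baiap2, Cacnb3 and Rnf187, of which Gm49510 and Pdxp overlap on 1 strand. Summed over the 54 epithelial genes other than Ttr, the level was 2144 to 6494 CPM (median 4297) in high and 638 to 1387 CPM (median 755) in low libraries, and the part of this share of all reads in these small differences was not tested.

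After group means were removed, the genes whose log2 CPM followed Ttr most closely over the 47 libraries were Clic6 (Pearson r = 0.979), Kcne2 (0.979), F5 (0.978), Slc4a5 (0.971), Aqp1 (0.968), Folr1 (0.967), Tmem72 (0.966), 1500015O10Rik (0.964), Kcnj13 (0.961) and Slc16a8 (0.959). F5 encodes coagulation factor V. These values describe libraries that differ in depth and share their Ttr content, and no test was made. Within the 24 high libraries the slope of log2 CPM on log2 Ttr was 1.00 for Folr1, 0.87 for Clic6, 0.84 for Prlr, 0.76 for Kcne2 and 0.74 for Kl. It was 0.23 for Htr2c and −0.05 for Pf4.

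The ratio of Ttr reads to reads of another gene has Ttr as its numerator, so the choice of classes by Ttr itself pushes it down in the low class, and the values are given as a description only. In high libraries there were 70.4 Ttr reads per Folr1 read (53 to 90.2), 26.4 per Clic6 read (20.4 to 44.6), 14.2 per Kl read (11.6 to 28.7) and 0.976 per Enpp2 read (0.709 to 1.38). In low libraries the medians were 30.9 for Folr1 (6.78 to 113), 10.6 for Clic6 (2.47 to 22.6), 1.81 for Kl (0.172 to 7.55) and 0.159 for Enpp2 (0.0173 to 0.687). For Kcne2 there were 95.3 Ttr reads per Kcne2 read (71.5 to 179) in high libraries and 76 (20.3 to 205) in the 21 low libraries that held a read of it. For Htr2c, which neurons also make, the ratio was 26.2 (13.6 to 54.3) in high and 0.790 (0.0713 to 8.53) in low libraries.

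Pf4, which encodes the injected chemokine and is also made by border macrophages, had few reads in each library. Its median was 0.796 CPM (0.335 to 2.37) in the high class and 0.446 CPM (0.0783 to 1.15) in the low class. The difference of 0.69 (SE 0.227, adjusted p = 0.0512) missed the threshold, and the classes overlapped. DESeq2 called it, as did 8 in all of the 34 alternatives in which it passed the read filter, with adjusted p from 0.0171 to 0.532. It did not pass that filter in Veh libraries alone or in PF4 libraries alone. Akap11, an anchoring protein of protein kinase A examined in the study, stood at 295 CPM against 314 CPM, with a fitted difference of 0.00 (SE 0.024, adjusted p = 0.997) that changed sign under no filter on low counts, a threshold at a log2 CPM of 10, no group term, Veh libraries alone and some left-out libraries.

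The comparison was repeated in libraries that share nothing, Young (16 high, 9 low) and Old (8 high, 14 low). In Young, 789 of 17180 genes were called (4.59%), 742 higher (4.32%) and 47 lower (0.274%). In Old, 678 of 16634 were called (4.08%), 614 higher (3.69%) and 64 lower (0.385%). Of the 742 genes higher in Young, 659 were tested in Old, 642 of these had the same sign and 395 were also called higher, 59.9% of those tested. These 395 were 64.3% of the 614 genes higher in Old. Of the 47 genes lower in Young and the 64 lower in Old, 1 was shared (2.13% and 1.56%).

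Folr1, Clic6, Kl and Prlr were called higher at both ages. Kcne2 was called in Young and did not pass the read filter in Old, where 8 of 22 libraries were high. With no filter beyond 1 read, an alternative chosen after the data were seen, 52 of 54 epithelial genes were called higher in each age. The median was 2.33 in Young and 2.83 in Old, and 46 of 54 had the larger value in Old. The filter had kept 39 of these genes in Old and 53 in Young. Some of those brought back, such as Kcne2, were near 0 in the low libraries of Old mice, so these sizes are descriptive. Kcne2 differed by 3.56 (SE 0.257) in Young and 5.58 (SE 0.271) in Old. Its low libraries had a median of 0.938 CPM in Young and 0.246 CPM in Old, and its high libraries 24.1 and 18.5 CPM. Kl differed by 2.28 (SE 0.150) in Young and 2.55 (SE 0.139) in Old, and Htr2c by 0.87 (SE 0.062) and 0.84 (SE 0.080).

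Of the stromal genes, 1 of 10 was called higher in Young (Lum, list median 0.39) and 6 of 10 in Old (list median 1.01). Over all genes tested, 4.32% were called higher in Young and 3.69% in Old. Ptgds was 0.50 (SE 0.292, adjusted p = 0.409) in Young and 1.39 (SE 0.341, adjusted p = 0.0129) in Old, and the test of its difference between ages did not pass (0.89, SE 0.478, adjusted p = 0.491). Mrc1 was likewise not called in Young (0.36, SE 0.284) and was higher in Old (1.01, SE 0.212), with a difference between ages of 0.64 (SE 0.390) that was not called. Plvap was higher in Young (0.42, SE 0.098) and not called in Old (0.08, SE 0.130), again without a called difference between ages. The cilia genes were called in 6 of 12 at each age.

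In Old alone, 1 of 8 hippocampal excitatory genes, Neurod6, a transcription factor of pyramidal neurons, was called lower (−0.29, SE 0.0797), against 0.10 (SE 0.0828, not called) in Young. In Old, 1 of 6 microglial genes was also called lower, with a list median of −0.14. Over all genes tested in Old, 0.385% were called lower. Of the thalamus and habenula genes, Lef1 (0.42, SE 0.104) and Zic1 (1.11, SE 0.278) were called higher in Old and not in Young (0.27, SE 0.126, and −0.14, SE 0.303). None of these 3 genes passed the test of the difference between ages.

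**Figure D4:**
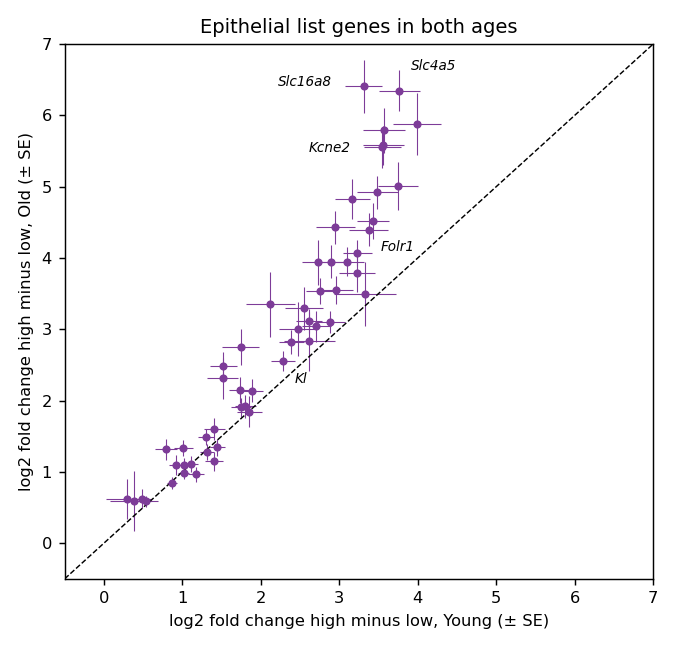
Log2 difference of high against low libraries in Young (x axis) and Old (y axis) libraries, from fits that share no library. Most epithelial genes lie above the line of equal values.

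The test of the difference between ages called no gene (edgeR, 1880 at an unadjusted p below 0.05, lowest adjusted p 0.0775, for Slc16a8), while DESeq2 called 3, Gm26603, Slc4a5 and Slc16a8. Of the 53 tested epithelial genes, 45 had the larger value in Old, with a median difference of 0.51. The low class of Young mice held more Ttr than that of Old mice, as given above. With the log2 CPM of Ttr as a number in place of the classes, edgeR again called no gene for a difference between ages (1295 at an unadjusted p below 0.05), and 9 of 53 epithelial genes were steeper in Old, with a median difference in slope of −0.05. The direction thus differed between the class difference and the slope, which are not the same quantity, and the cause was not tested. Within each treatment the differences were again alike in direction, with Folr1 at 3.57 (SE 0.297) in Veh and 4.11 (SE 0.211) in PF4 libraries, and Kl at 2.29 (SE 0.163) and 2.56 (SE 0.143).

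The classes were then added to the comparisons the study was designed for, of age and of PF4 within each age. Without the classes in the model, 492 genes differed between Old Veh and Young Veh (2.77%), and with them 427 (2.40%), of which 384 were called in both fits. Of the 108 calls lost, 10 were genes that also differed by class (9.26%), near the 7.37% of all genes. Of the 43 gained, 10 also differed by class (23.3%), above that share. Leaving out the 8 libraries with the lowest totals left 163 age calls, and library total as a covariate left 269. The cause was not tested, since leaving out these libraries lowers the number of samples as well. The epithelial genes gained precision, their median SE falling from 0.524 to 0.207, while over all genes it was 0.0849 in both fits. Their median age difference was −0.74 without the classes and −0.34 with them, and 53 and 49 of 53 were negative, but edgeR called none in either fit (4 and 13 at an unadjusted p below 0.05). DESeq2 called none without the classes and 5 with them, Folr1, Clic6, Kcnj13, Slc4a5 and Cldn2, which in edgeR ran from −0.85 (Clic6, SE 0.288) to −0.44 (Slc4a5, SE 0.315). Kl was −0.84 (SE 0.457) without the classes and −0.38 (SE 0.154, adjusted p = 0.209) with them. Within each class Ttr was still higher in Young than in Old libraries. Its medians were 92.5 against 20.2 CPM in the low class and 2209 against 1749 CPM in the high class. The part of this remaining Ttr difference in these age values was not tested.

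PF4 against Veh in Old mice gave 6 calls without the classes (0.0337%) and 7 with them (0.0394%). The 6 were called in both fits, among them Dlg2, Id2, Akap11, Plec and Arfgap3, the addition was Zfp106, and none differed by class. Akap11 was −0.17 (SE 0.033) without and −0.17 (SE 0.034) with the classes. This comparison had 0 calls by edgeR without the 8 libraries of lowest total (970 at an unadjusted p below 0.05), with library total as a covariate (1002) or with no filter on low counts (1789), and 24 with DESeq2. The epithelial genes had a median of 0.05 without the classes and −0.11 with them, and the number below 0 went from 16 to 43 of 53.

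In Young mice, PF4 against Veh gave 0 calls with the classes (edgeR, 234 at an unadjusted p below 0.05, and 0 by DESeq2) and 0 without them (213 at an unadjusted p below 0.05). The median SE of the epithelial genes fell from 0.471 to 0.180, and their median went from 0.12 to −0.06. No epithelial gene was called in either PF4 comparison by edgeR or DESeq2, and none had an unadjusted p below 0.05 in edgeR. The sign of the median thus turned with the class term in both PF4 comparisons, and this change was not tested.

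**Figure D5:**
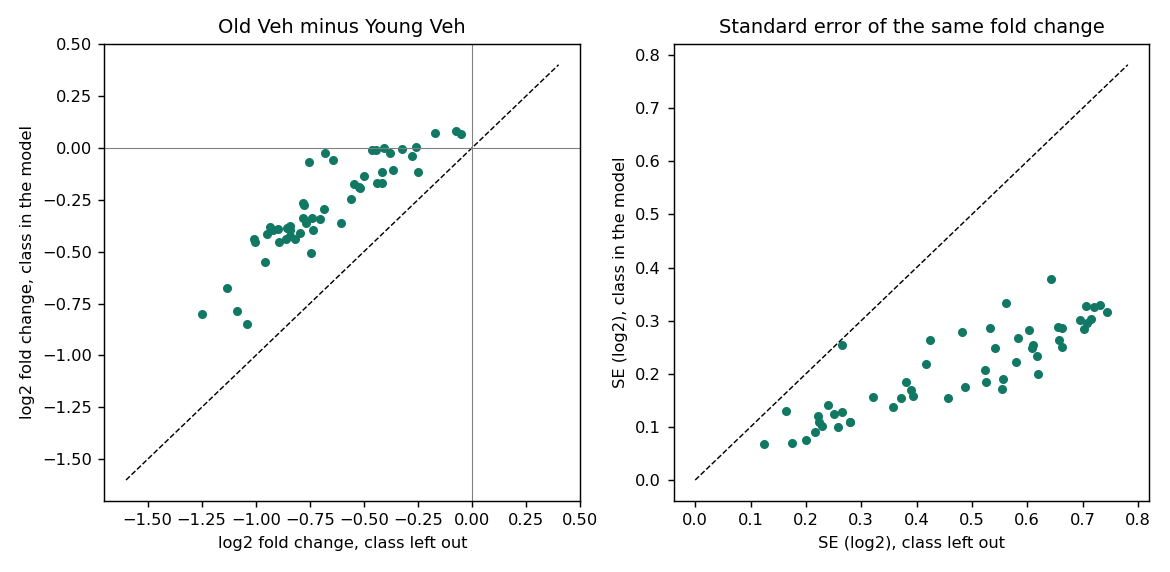
Old Veh minus Young Veh for the epithelial genes, fitted without (x axes) and with (y axes) the classes in the model. The left panel gives the log2 difference and the right panel its SE. The median SE was 0.524 without the classes and 0.207 with them.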

How the data were processed

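For 47 hippocampal libraries, the authors deposited a table of gene-level counts that had not been normalized. Per the labels, reads were trimmed with Trim Galore 0.3.7, aligned with STAR 2.5.3a to GRCm38 and analysed with DESeq2; the counting program and annotation are not given in the sources used here. All 35486 rows named a gene. Groups follow the ages and treatments of the labels, which do not state that each came from a separate animal, so p-values measure the spread between these samples.

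The quasi-likelihood test of edgeR 4.0.16 (R 4.3.3) was fitted to all libraries with group and Ttr class (threshold log2 CPM of 9) as terms, TMM normalization and the filterByExpr filter on group. Of 17778 genes kept, Ttr was left out of class fits (17777 tested). Calls used a Benjamini-Hochberg adjusted p below 0.05, SE is the absolute log2 difference divided by the square root of F, and log2 CPM used a prior count of 2. Totals of 2242879 to 21112908 reads limit precision for genes with few reads. Class counts were compared with two-sided Fisher's exact tests. Steps were tested on simulated data.

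Named genes were the epithelial list members, Kl, Pf4, Akap11, the 20 higher and 10 lower genes of smallest adjusted p, the 4 most abundant tested members of each other list and the genes most like Ttr. Other called list members, Ak7 and Lamp5, the Old PF4 calls beyond Akap11 and the genes whose contrast differed between ages were named after their values were seen. A few genes that meet these rules are not reported here. Members and lists were chosen with earlier results of these data known. Gene positions came from GENCODE vM21 and promoters from RefSeq, both of GRCm38. Alternatives were DESeq2 1.42.0, other filters, thresholds at a log2 CPM of 8 and 10, a replicate block, library total, subsets, left-out libraries and, chosen after seeing the data, fits by age with no filter and a numeric Ttr level in the age difference.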

Additional observations from a re-analysis of the deposited data

Results flagged for a closer look

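The highest and lowest library of a set was compared with its nearest neighbour on the log2 CPM scale, for Folr1, Kcne2, Clic6, Prlr, Kl and Pf4. The sets were each class within each group and, besides these, all 10 libraries of Old PF4 with both classes together. Ttr, which chose the classes, was not examined in this way. Of 54 such sets, 4 held a library set apart by Dixon's gap, where chance gives about 1 in 20. Among the low Young PF4 libraries, replicate 7 stood above the others in Kcne2 (1.25, or 2.19 CPM, with the next at 0.18). Among the high Young PF4 libraries, replicate 1 stood below the others in Kcne2 (3.79, or 13.6 CPM), Clic6 (5.53, or 46.1 CPM) and Prlr (5.52, or 45.5 CPM). These genes rose with Ttr, and replicate 1 had the lowest Ttr of its set (1109 CPM), so its flags are not separate observations. Both libraries remain in the class their Ttr gives.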

How the results depend on the processing

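The count of 1311 genes called between high and low libraries was 857 with at least 10 reads in every library (12507 genes tested), 683 in Veh libraries alone and 590 in PF4 libraries alone. Leaving out 1 library at a time gave 1113 (without Old Veh replicate 10) to 1614 (without Old PF4 replicate 8). The age comparison gave 163 genes without the 8 libraries of lowest total and 269 with library total as a covariate. Old PF4 against Old Veh gave 24 with DESeq2, 11 without the library near the threshold, and 0 with no filter, without the 8 libraries of lowest total or with library total as a covariate. The difference between ages gave 3 with DESeq2, and with numeric Ttr, chosen after seeing the data, 9 rather than 45 of 53 epithelial genes had the larger value in Old. Young against Old class counts had odds ratios of 4.34 (threshold at a log2 CPM of 8) and 3.69 (10), and 2.58 without the 8 libraries of lowest total, and Young PF4 against Young Veh had 0.613 (8, p = 0.673, Fisher's exact test). The cause was not tested. The 69 named genes had 4213 values under the alternatives, of which 4160 kept their direction and side of the threshold, 11 lost the call (all genes called lower), 8 gained it (Pf4, adjusted p from 0.0171 to 0.532 over its 34 alternatives) and 34 changed sign (Akap11). Akap11 was −0.0065 with no filter, −0.00047 with a threshold of 10, −0.082 without the group term, −0.031 in Veh libraries alone and −0.010 to 0.010 with 1 library left out.

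Replicate numbers do not pair the libraries. The deviations of 66 pairs with the same number had a median r of −0.007 (−0.42 to 0.55), 21 of them over 0.1, and other pairs had −0.014. With a replicate block the class comparison gave 1107 genes (901 shared with 1311), Young 394 (385 shared with 789), Old 285 (121 shared with 678, 180 higher and 105 lower against 614 and 64, with 30 of 39 epithelial genes called rather than 39), the difference between ages 2 (Gm26603 and Nrip3), the age comparison 440, Old PF4 6 and Young PF4 0.

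Totals limit low counts. Pf4 had 1 to 19 reads per library, and it was tested only in the 34 alternatives where it passed the read filter.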

Other observations

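Of the 47 genes higher by over 3 on the log2 scale in libraries rich in choroid plexus RNA, 27 were in none of the lists. Among the 27, Gm21973 shares exons with Prlr on the same strand and Otx2os1 overlaps Otx2, so these are not separate observations. Genes near 0 in low libraries can pass the read filter only through the high libraries, so these sizes are descriptive. These were named after their values had been seen. The steepest was 4933429O19Rik (4.73, SE 0.323). Pon1, a serum paraoxonase, was higher by 4.51 (SE 0.341), and the sulfotransferases Sult1c1 and Sult1c2 by 4.22 (SE 0.350) and 4.03 (SE 0.312). Cldn9, a tight junction claudin, was higher by 3.88 (SE 0.323), Cox8b, a subunit of cytochrome c oxidase, by 3.84 (SE 0.258), and Dpep1, a membrane dipeptidase, by 3.64 (SE 0.415).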
